A study of Rattus norvegicus with 2 samples.

Results

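The aminoacyl-tRNA synthetase genes were taken from the deposited gene table by symbol alone. The rule kept every symbol of 1 capital letter followed by ars, ars1 or ars2, together with Farsa, Farsb, Eprs1, Aimp1 and Aimp2, and found 39 of 21224 gene rows. By their known function these were 20 cytosolic enzyme genes, 17 mitochondrial enzyme genes and the 2 scaffold genes Aimp1 and Aimp2. The samples were cortical neurons of rat embryos at day E18, treated with a small interfering RNA against Ythdf3 (siYthdf3) or with a negative control (siNC). Ythdf3 encodes a cytoplasmic protein that binds mRNA carrying the m6A mark, and the series title ties its knockdown to hypoxic-ischemic neuron injury and Wwtr1. No strain, sex, dose or time after transfection is in the labels, and no label names a hypoxic sample. Each group was 1 library, so differences between siYthdf3 and siNC have no error from replicates and no p-value.

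Aminoacyl-tRNA synthetases attach each amino acid to its transfer RNA, which makes the substrate that the ribosome reads. The cytosol and the mitochondrion use separate sets of enzymes, all encoded in the nucleus, and the genes of the mitochondrial set carry the suffix 2. Gars1 and Kars1 are exceptions, since each encodes the glycine or lysine enzyme of both compartments, and they stand with the cytosolic genes here. In the cytosol, 8 of the enzymes and 3 scaffold proteins form the multisynthetase complex. Amino acid shortage raises the transcription of many cytosolic synthetase genes through the factor ATF4. Neurons are known to be sensitive to faults in these enzymes, and inherited variants cause neuropathies and encephalopathies.

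The siYthdf3 library held 22586543 gene reads, the siNC library 15392218. Ythdf3 itself was at 6.93 FPKM in siYthdf3 against 9.38 FPKM in siNC, where FPKM is reads scaled by gene length and library total. That is a ratio of 0.739, with a 95% counting interval of 0.675 to 0.809. Counting intervals here are exact, cover counting error only and say nothing of differences between cultures. Neuron markers summed to 1135 FPKM in siYthdf3 against 989 FPKM in siNC, and all 9 had reads in both libraries, as the label of cortical neurons says. Other cells were present as well. Markers of dividing cells summed to 108 and 221 FPKM in siYthdf3 and siNC, with 7 of 7 lower in siYthdf3. Neural progenitor markers summed to 517 and 935 FPKM, with 6 of 7 lower. Most of the progenitor sums was Vim, at 357 and 708 FPKM, and Hes1, 1 of the 6, had an interval that includes 1. Astrocyte markers summed to 225 FPKM in siYthdf3 against 159 FPKM in siNC, with 3 of 7 higher and 4 lower. Fibroblast and pericyte markers summed to 153 and 131 FPKM, with 2 of 6 higher and 4 lower. The largest part of the astrocyte and of the fibroblast and pericyte sums was 1 gene each, Gfap at 141 and 68.2 FPKM and Acta2 at 147 and 121 FPKM. Oligodendrocyte lineage markers summed to 18.7 and 31.1 FPKM, with 7 of 7 lower in siYthdf3. Microglia markers summed to 4.28 and 8.88 FPKM, with 6 of 7 lower, and endothelial markers to 0.686 and 0.949 FPKM, with 3 of 5 lower. Cx3cr1 was listed at 0 in siYthdf3 and Lum in siNC.

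All 39 synthetase genes had reads in both libraries, and the cytosolic genes stood well above the mitochondrial ones. Cytosolic genes ranged from 9.56 to 190 FPKM in siYthdf3, with a median of 43.1, and from 11.5 to 187 FPKM in siNC, with a median of 47.9. Mitochondrial genes ranged from 0.958 to 44.6 FPKM in siYthdf3, with a median of 3.16, and from 0.905 to 49.99 FPKM in siNC, with a median of 3.797. The highest was Nars1, the asparagine enzyme, at 190 FPKM in siYthdf3 against 187 FPKM in siNC. Sars1, the serine enzyme, followed at 148 and 157 FPKM, then the scaffold gene Aimp1 at 98.8 and 108 FPKM. The lowest cytosolic genes were Farsa and Farsb, the alpha and beta chains of the phenylalanine enzyme, at 9.56 and 11.5 FPKM in siYthdf3 and at 11.9 and 11.5 FPKM in siNC. The order of levels was nearly fixed. Of the 39 genes, 21 held the same rank in both libraries, and no rank differed by more than 3.

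**Figure D1:**
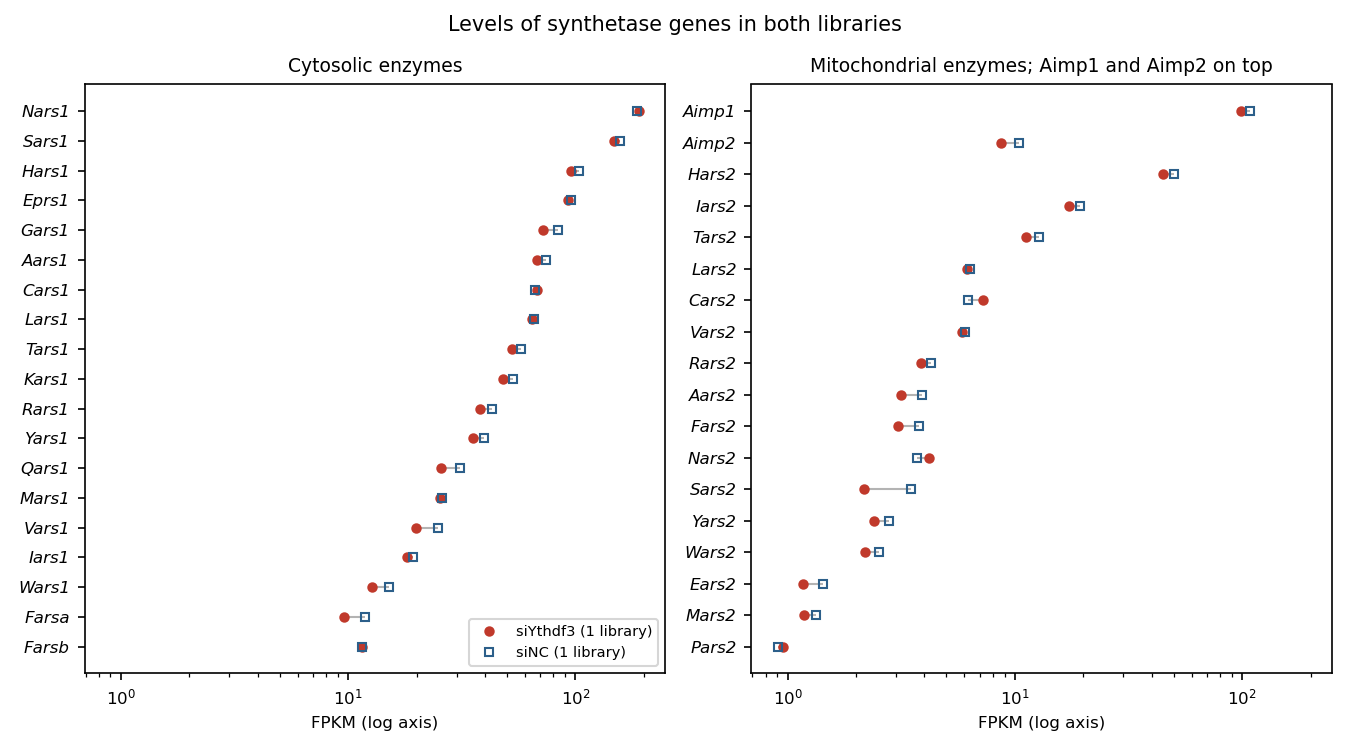
FPKM of 37 of the 39 genes (log axis) in the siYthdf3 library (filled circles) and the siNC library (open squares), 1 library each, with cytosolic enzymes on the left and mitochondrial enzymes, Aimp1 and Aimp2 on the right. Cytosolic genes lie between 9.56 and 190 FPKM in siYthdf3, and Hars2, at 44.6 FPKM, stands far above the other mitochondrial genes.

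Compared with siNC, the siYthdf3 library showed slightly lower values for most synthetase genes. The difference between libraries is given as the log2 ratio of siYthdf3 over siNC after adding 0.5 FPKM, for the rows whose mean reached 1 FPKM. Of the 39 genes 38 passed that filter, and Pars2, the mitochondrial proline enzyme, did not, at 0.958 FPKM in siYthdf3 against 0.905 FPKM in siNC. Of the 38 genes, 33 had a log2 ratio below 0, where 51.9% of all 13172 rows did. Their median was -0.14, with quartiles of -0.20 and -0.06, where all rows had a median of -0.01 with quartiles of -0.17 and 0.14. With 0.5 FPKM added, no synthetase gene was at least 1.5-fold lower or higher. With 0.1 FPKM added, after rescaling to TPM and after thinning the siYthdf3 reads to the siNC total, 1 gene was at least 1.5-fold lower, and Sars2 had an FPKM ratio of 0.623. Among all rows 3.95% were at least 1.5-fold lower and 2.41% at least 1.5-fold higher. The synthetase genes took 0.418% of the reads in siYthdf3 (exact interval 0.415 to 0.421) and 0.448% in siNC (0.444 to 0.451). Fewer cells of a type and less RNA per cell cannot be told apart in such libraries, and the part of the lower dividing and progenitor cell markers in these values was not tested.

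Counting intervals of the FPKM ratio lay below 1 for 20 of the 38 genes, above 1 for 1 and included 1 for 17. Among all rows they lay below 1 for 22.2% and above 1 for 20%. Intervals narrow with reads, and the cytosolic genes had a median of 4841 reads over both libraries, against 451 for the mitochondrial genes. Intervals lay below 1 for 14 of 20 cytosolic genes and for 5 of 16 mitochondrial genes. Among rows with 1068 to 19164 reads, the range of the cytosolic genes, the share was 28.9%. Among rows with 95 to 10648 reads, the range of the mitochondrial genes, it was 22.9%. Rows were not matched in depth within these ranges, so the shares allow for reads only roughly. In the same ranges of reads, log2 ratios below 0 were found for 17 of 20 cytosolic genes against 49.6% of rows, and for 14 of 16 mitochondrial genes against 52.7%. After rescaling to TPM, which sets the FPKM of each library to the same total, 29 of the 38 log2 ratios were below 0, against 43.8% of all rows. Intervals then lay below 1 for 12 genes, where 16.7% of all rows did. They lay above 1 for 4, and the share of all rows above 1 was not computed after rescaling.

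**Figure D2:**
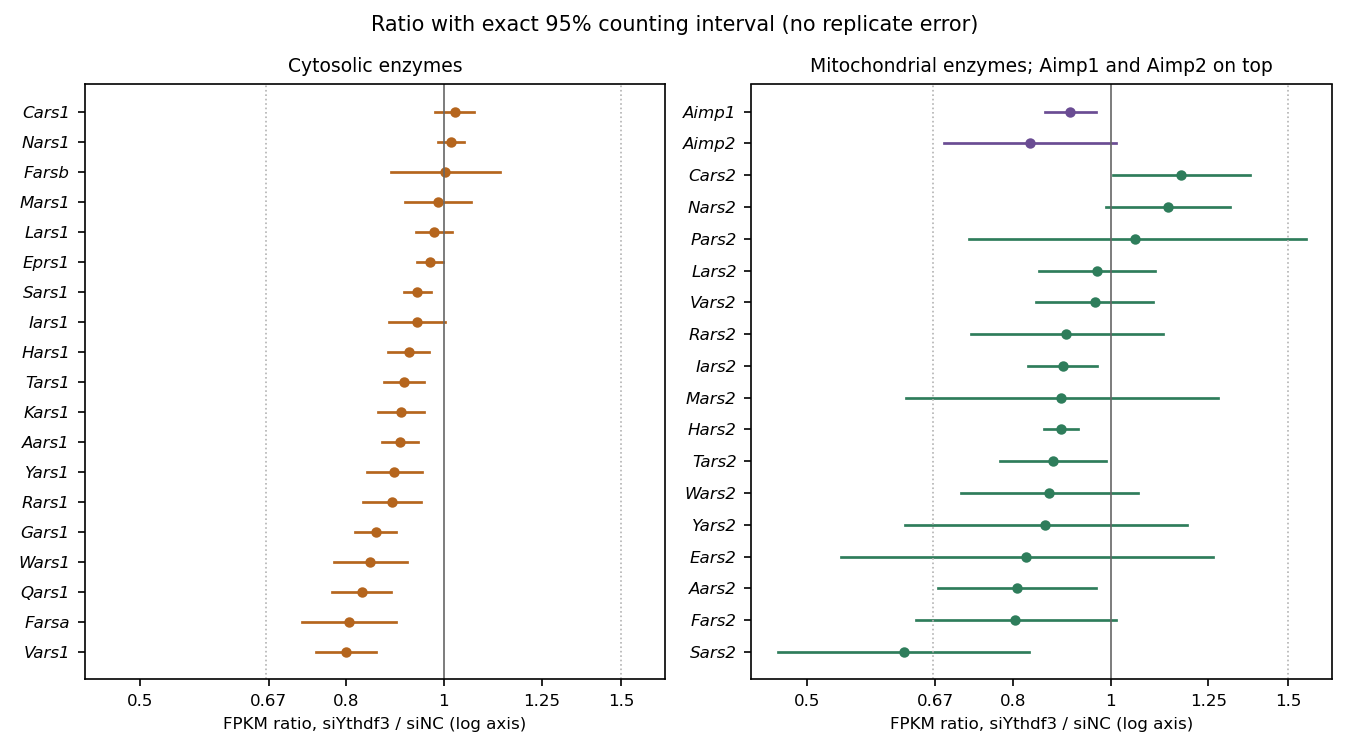
Ratio of FPKM, siYthdf3 over siNC (log axis), for 37 of the 39 genes, with bars for the exact 95% counting interval and dotted lines at a 1.5-fold difference. Most points lie left of 1, Vars1 is lowest among the cytosolic genes at 0.80, and Sars2 is lowest of all at 0.623 with a wide interval.

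Among the cytosolic enzymes the lowest ratios belonged to Vars1, Farsa, Qars1, Wars1 and Gars1. Vars1, the valine enzyme (ENSRNOG00000000867, chromosome 20, 3805776 to 3820298, minus strand), was at 19.9 FPKM in siYthdf3 against 24.9 FPKM in siNC. The 1835 and 1563 reads behind these levels put the ratio at 0.80, with an interval of 0.747 to 0.856. Farsa had a ratio of 0.805 (interval 0.723 to 0.897), while Farsb, its partner chain in the same enzyme, was at 1.00 (interval 0.886 to 1.14). These intervals overlap between 0.886 and 0.897. The Farsa row overlaps that of Gcdh on the other strand by 813 bases, so part of its reads is uncertain. Gcdh was at 9.5 FPKM in siYthdf3 against 9.8 FPKM in siNC. Qars1, the glutamine enzyme, was at 25.7 FPKM in siYthdf3 against 31.0 FPKM in siNC, and Wars1, the tryptophan enzyme, at 12.8 and 15.1 FPKM. Gars1 was at 72.0 FPKM in siYthdf3 against 84.2 FPKM in siNC, which is a ratio of 0.856 (interval 0.817 to 0.897).

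Another 10 cytosolic genes had ratios nearer to 1, with intervals below 1 for all of them but Iars1. Rars1, for arginine, was at a log2 ratio of -0.17, Yars1, for tyrosine, at -0.16, Aars1, for alanine, at -0.14 and Kars1 at -0.14. Tars1, for threonine, was at -0.13 and Hars1, for histidine, at -0.12. Sars1 was at -0.09 and Iars1, for isoleucine, also at -0.09. The interval of the Iars1 ratio ran from 0.883 to 1.00. Eprs1, which joins the glutamate and proline enzymes in 1 protein, was at 92.4 FPKM in siYthdf3 against 95.4 FPKM in siNC, a log2 ratio of -0.05 that became 0.00 after rescaling to TPM.

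The remaining cytosolic genes, Farsb among them, had intervals that include 1. Lars1, for leucine, was at 64.2 FPKM in siYthdf3 against 65.7 FPKM in siNC, and Mars1, for methionine, at 25.5 and 25.8 FPKM. With 11472 and 7692 reads, Nars1 had a ratio of 1.02 (interval 0.987 to 1.05), so that a difference of the size of Vars1 lies outside its counting interval. Cars1, for cysteine, was at 67.9 FPKM in siYthdf3 against 66.3 FPKM in siNC, which is a ratio of 1.02 (interval 0.980 to 1.07).

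The multisynthetase complex was described through the 8 enzyme genes whose products it holds, Eprs1, Kars1 and Qars1 among them, and its scaffold genes. The 8 enzyme genes had a median log2 ratio of -0.09, with 8 of 8 below 0 and 5 intervals below 1. The 12 cytosolic genes outside the complex had a median of -0.14, with 9 of 12 below 0 and 9 intervals below 1. Among all rows with reads in the range of the cytosolic genes, 49.6% were below 0 and 28.9% had intervals below 1. After rescaling to TPM, Eprs1, Lars1 and Mars1 of the complex were at or above 0. Aimp1 had a ratio of 0.912 (interval 0.860 to 0.967). Aimp2 was at 8.71 FPKM in siYthdf3 against 10.5 FPKM in siNC, which is a ratio of 0.832 (interval 0.684 to 1.01). Eef1e1, the third scaffold gene of the complex, lies outside the symbol rule and was at 26.1 and 29.1 FPKM, a log2 ratio of -0.16. By catalytic fold, 9 cytosolic class I genes had a median of -0.16 and 10 class II genes of -0.12, with Eprs1 in neither count because it holds a domain of each.

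Among the mitochondrial enzymes Sars2 stood lowest. Sars2, for serine (ENSRNOG00000019962, chromosome 1, 84028986 to 84040725, plus strand), was at 2.17 FPKM in siYthdf3 against 3.48 FPKM in siNC. These levels rest on 96 and 105 reads and give a ratio of 0.623 (interval 0.467 to 0.830). With 0.5 FPKM added to each level the log2 ratio was -0.58, just short of a 1.5-fold difference, and 4.01% of all rows were lower. With 0.1 FPKM added it passed 1.5-fold. Its cytosolic counterpart Sars1 had a ratio of 0.942 (interval 0.913 to 0.972).

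Aars2, Tars2, Hars2 and Iars2 also had intervals below 1. Iars2 was at 17.3 FPKM in siYthdf3 against 19.3 FPKM in siNC, which is a ratio of 0.896 (interval 0.828 to 0.969), and Tars2 was at 11.2 and 12.7 FPKM, which is a ratio of 0.876 (interval 0.776 to 0.990). The Tars2 row, which spans 17088 bases, overlaps the row of Rprd2 on the same strand by 17071 bases, so its reads are uncertain. Aars2 had a ratio of 0.807 (interval 0.674 to 0.967), but its row spans 198560 bases and overlaps 9 other rows, Hsp90ab1 at 1822 and 1923 FPKM among them, so its reads are uncertain too. Hars2 was at 44.6 FPKM in siYthdf3 against 49.99 FPKM in siNC, which is a ratio of 0.893 (interval 0.859 to 0.928). Its gene length in the deposited table, 5990 bases, is the longest among the 39, and its level stands far above that of Iars2, the next mitochondrial gene.

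Cars2 alone of the 38 genes had an interval above 1 on the FPKM scale, where 20% of all rows did. After rescaling to TPM 4 of the 38 genes did, and the share of all rows was not computed there. Cars2, for cysteine (ENSRNOG00000014526, chromosome 16, 77950008 to 77987156, plus strand), was at 7.27 FPKM in siYthdf3 against 6.19 FPKM in siNC, which is a ratio of 1.17 (interval 1.01 to 1.38). Nars2 was at 4.20 FPKM in siYthdf3 against 3.69 FPKM in siNC, which is a ratio of 1.14 (interval 0.989 to 1.31). The other 9 mitochondrial genes that passed the filter, Ears2, Fars2 and Lars2 among them, had log2 ratios between -0.27 and -0.04 with intervals that include 1. They rested on as few as 95 reads over both libraries, for Ears2, where the interval ran from 0.540 to 1.26. Differences of the size seen in the cytosolic genes were not detectable at the depth of Ears2. The interval of Lars2, with more reads, ran from 0.849 to 1.11 and leaves out the ratio of 0.80 of Vars1.

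Set beside each other, cytosolic and mitochondrial genes were displaced by about the same amount. The median log2 ratio was -0.12 over 20 cytosolic genes and -0.16 over 16 mitochondrial genes, a difference of 0.03. The sign of that difference turned to -0.02 when the mean had to reach 5 FPKM and to -0.07 among rows with at least 500 reads, so no order between the compartments is given. The mitochondrial values were more spread, with an SD across genes of 0.18 against 0.10 for the cytosolic genes, and rested on fewer reads. In the 18 pairs of a cytosolic and a mitochondrial gene for the same amino acid, in which Eprs1 and Fars2 each appear more than once, the cytosolic log2 ratio was the higher in 10 and the lower in 8. These include Eprs1 with Pars2, which lies under the filter, and without that pair the counts are 10 and 7. The widest gaps were those of serine, with Sars1 above Sars2 by 0.49, phenylalanine, with Farsb above Fars2 by 0.28, and valine, with Vars1 below Vars2 by 0.27. Cysteine and asparagine had both genes above 0 in siYthdf3.

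The balance of levels between the compartments differed far more between amino acids than between libraries. The cytosolic gene was 10.1 times as high as its mitochondrial counterpart at the median of the pairs in siYthdf3 and 10.5 times in siNC. For isoleucine the levels were nearly equal, with a quotient of 1.05 in siYthdf3 and 1.00 in siNC, and for histidine it was 2.13 and 2.07. At the other end Eprs1 stood at 96.5 times Pars2 in siYthdf3 and 106 times in siNC. For serine the quotient was 68.0 in siYthdf3 and 45.0 in siNC.

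**Figure D3:**
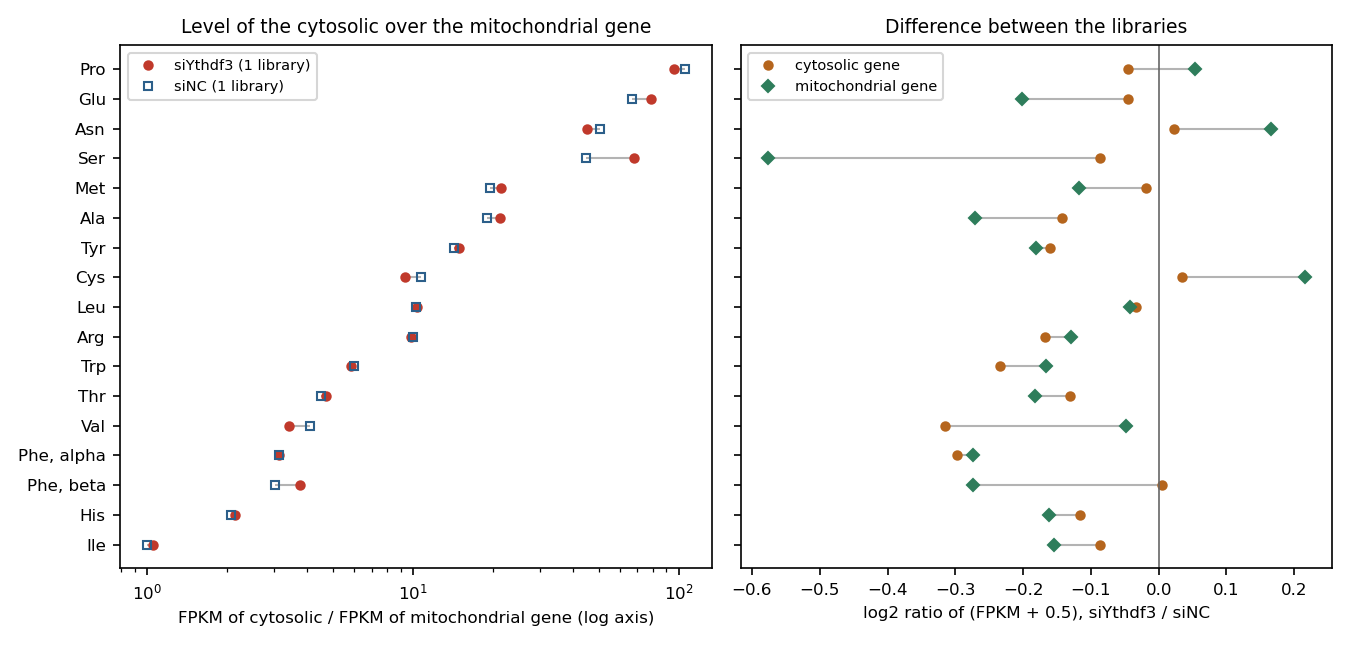
Cytosolic and mitochondrial gene for the same amino acid, in 17 of the 18 pairs. Left, the quotient of their FPKM values (log axis) in siYthdf3 (filled circles) and siNC (open squares), from 1.05 and 1.00 for isoleucine to 96.5 and 106 for proline. Right, the log2 ratio of siYthdf3 over siNC for the cytosolic gene (circles) and the mitochondrial gene (diamonds), where the cytosolic gene is the higher in 10 of all 18 pairs.

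Some cytosolic synthetase promoters, 7 of the 17 searched, carried a short sequence known from the amino acid response. Promoters are shown to describe the letters near the gene starts, and their part in the log2 ratios was not tested. The letters TGATGNAA, the core shared by elements that ATF4 binds with a C/EBP partner, were searched on both strands of RefSeq windows (GRCr8) of 250 bases before to 50 after each gene start. Windows matched 35 of the 39 genes. A match was present in 0 of 16 mitochondrial and 0 of 2 scaffold genes. It was present in 3.98% of all 33469 windows and in 2.11% of the 10814 windows of genes whose mean reached 1 FPKM. These shares count windows, while the synthetase and scaffold genes were each counted once, also where a gene had several windows. The matches that lie before the gene start are shown in the gene's own direction, to compare their place, with the match in capitals. Their first bases lie 14 to 112 bases before the gene start.
Aars1 (chr19:55908320-55908417, plus strand): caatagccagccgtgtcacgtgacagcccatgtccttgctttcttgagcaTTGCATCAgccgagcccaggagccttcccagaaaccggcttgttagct
Iars1 (chr17:15193653-15193726, minus strand): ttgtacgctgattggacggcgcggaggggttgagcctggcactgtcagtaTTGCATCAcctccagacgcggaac
Mars1 (chr7:65023754-65023820, minus strand): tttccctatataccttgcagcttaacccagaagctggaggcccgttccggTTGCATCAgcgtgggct
Nars1 (chr18:60275783-60275846, minus strand): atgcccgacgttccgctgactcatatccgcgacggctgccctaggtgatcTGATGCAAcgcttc
Tars1 (chr2:62114803-62114879, minus strand): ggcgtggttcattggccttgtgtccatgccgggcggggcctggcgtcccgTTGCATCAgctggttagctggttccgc

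The pattern also stands after the gene start in Cars1 and Yars1, at positions 18 and 39, and a second time in Aars1, at position 10. The sites of Cars1 and Yars1 are given with the bases next to them.
Cars1 (chr1:208225334-208225363, minus strand): cggcgccgcggTTGCATCAgattctggaaa
Yars1 (chr5:146820190-146820212, plus strand): acgagctcagcTGATGCAAcctg

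The 8 letters read TGATGCAA, on the one strand or the other, in all 7 printed sites. The 7 cytosolic genes with a match had log2 ratios from -0.16 to 0.03 with a median of -0.09, and the 10 without a match from -0.31 to 0.00 with a median of -0.13. These ranges overlap. Nars1 and Cars1, at 0.02 and 0.03, hold a match, and so does Yars1, at -0.16. Vars1, at -0.31, holds none, and neither does Farsb, at 0.00. A match is a description of letters, and binding of a factor was not measured. Of the 24 amino acid response genes listed for comparison, 23 had a window and 5 of these a match.

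Several synthetase genes start head to head with a gene on the other strand, and the best known case joins both compartments. Hars1 (ENSRNOG00000028105, chromosome 18, 28381655 to 28398740, minus strand) and Hars2 (ENSRNOG00000016087, chromosome 18, 28398795 to 28413484, plus strand) encode the cytosolic and the mitochondrial histidine enzyme, and 54 bases lie between their rows in the deposited table. In the RefSeq windows the starts enclose 143 bases with 9 CpG dinucleotides and a GC content of 55.2%. The stretch between the starts is shown because both genes lie next to it, and it is printed on the plus strand with CG in capitals.
Hars1 to Hars2 (chr18:28672713-28672855, plus strand): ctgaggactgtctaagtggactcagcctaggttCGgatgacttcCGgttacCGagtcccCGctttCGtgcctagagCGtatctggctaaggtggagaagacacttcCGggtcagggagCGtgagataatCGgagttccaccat

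Hars1 was at 95.2 FPKM in siYthdf3 against 103 FPKM in siNC, and the log2 ratios of the pair were close, at -0.12 for Hars1 and -0.16 for Hars2. In all, 12 of the 39 genes had a divergent row whose start lies within 1000 bases, in 11 pairs, of which 10 had a partner outside the synthetase genes. In those 10 pairs the synthetase or scaffold gene was below 0 in 10, as were 33 of the 38 genes that passed the filter. The partner was below 0 in 4 and above 0 in 6, where 51.9% of all rows were below 0. The synthetase or scaffold gene had the lower log2 ratio in 8 of the 10. With most synthetase genes already below 0, that count is not a separate result.

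The largest gap was that of Sars2 and Mrps12, a protein of the small mitochondrial ribosomal subunit, whose rows lie 205 bases apart. Mrps12 was at 6.87 FPKM in siYthdf3 against 5.75 FPKM in siNC, which is a ratio of 1.20 (interval 0.890 to 1.62), beside the ratio of 0.623 of Sars2. Yars1 had the next largest gap, with S100pbp at 5.47 FPKM in siYthdf3 against 3.55 FPKM in siNC, which is a ratio of 1.54 (interval 1.32 to 1.81). Some of these head-to-head rows overlap, by 727 bases for Kars1 and Terf2ip, by 180 for Ears2 and Ubfd1 and by 69 for Rars2 and Orc3, and whether the authors counted by strand is not known here. Reads in such overlaps could belong to either gene. In all, 10 of the 39 rows overlap another row, and Mars1 ends 1 base from Ddit3, a stress-induced transcription factor gene on the other strand.

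**Figure D4:**
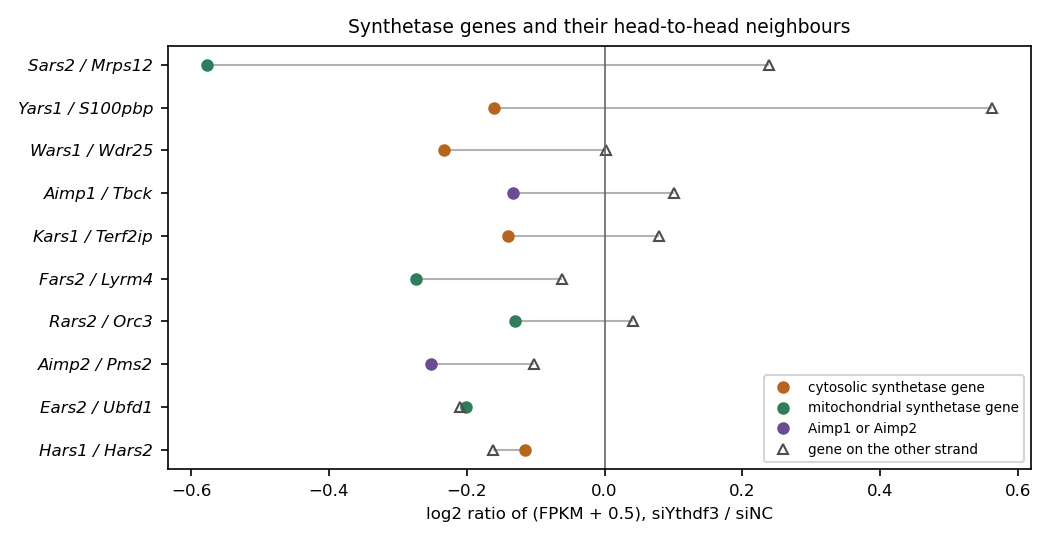
Log2 ratio of (FPKM + 0.5), siYthdf3 over siNC, for synthetase or scaffold genes (filled circles) and the gene that starts next to it on the other strand (triangles), in 10 of the 11 pairs. Sars2 and Mrps12 lie farthest apart, at -0.58 and 0.24, and Hars1 and Hars2, both synthetase genes, lie close together.

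Most genes that deliver charged tRNA to the ribosome, the next step after the synthetases, had lower values in siYthdf3. Of the 8 genes of that list, 7 were below 0 with intervals below 1, as were the intervals of 22.2% of all rows, and the median was -0.22. Eef1e1, described above as a scaffold gene of the multisynthetase complex, is also in that list and is 1 of the 7. The 8 genes held between 325 and 65593 reads over both libraries, and intervals are narrowest where reads are many. Eef1b2, a nucleotide exchange factor of elongation, was at -0.35, and Tsfm, its mitochondrial analogue, at -0.32. Eef1a1, which carries charged tRNA in most cells and was also picked with its value known, was at 869 FPKM in siYthdf3 against 992 FPKM in siNC. Its neuronal counterpart Eef1a2, picked with its value known, was the exception at 13.3 FPKM in siYthdf3 against 11.9 FPKM in siNC, which is a ratio of 1.11 (interval 1.03 to 1.20). Neuron markers were also higher in siYthdf3, in 8 of 9, and their part in that value was not tested.

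Genes of tRNA processing and modification had a median near that of all rows, though more of them lay below 0. Of 51 genes listed 50 were measured, with a median of -0.04, against -0.01 for all rows. Of the 50 genes, 34 were below 0, 8 had intervals below 1 and 1 had an interval above 1. Among all rows these shares were 51.9%, 22.2% and 20%. Elac1, a nuclease that trims tRNA ends, was at 0.35 and Dus2, which makes dihydrouridine in tRNA, at -0.34. The list of mitochondrial amidation and tRNA editing had a median of -0.06 over 7 genes, with 4 below 0 and 1 interval below 1. There Aarsd1, which clears mischarged alanine tRNA, was at 5.41 FPKM in siYthdf3 against 7.78 FPKM in siNC, which is a ratio of 0.695 (interval 0.604 to 0.801). Dtd2, an editing enzyme, was at -0.18 with an interval that includes 1. Tars3, a further threonine enzyme gene that the symbol rule leaves out, stood at 11.1 FPKM in siYthdf3 against 10.7 FPKM in siNC (interval of the ratio 0.936 to 1.16); it was picked with its value known.

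Amino acid response genes, which are known to share ATF4 with many of the cytosolic synthetase genes, lay on both sides of 0, with more of them below. Of the 24 genes 23 passed the filter, with a median of -0.10, 16 below 0, 8 intervals below 1 and 1 above. Among all rows 51.9% were below 0, 22.2% had intervals below 1 and 20% above, and 3.95% were at least 1.5-fold lower. At least 1.5-fold lower were 3 of them, Nupr1, Phgdh and Atf5, the last of which was picked with its value known. Atf4 itself was at 164 FPKM in siYthdf3 against 170.5 FPKM in siNC, which is a ratio of 0.962 (interval 0.923 to 1.00), and Asns, asparagine synthetase, had a ratio of 0.923 (interval 0.817 to 1.04). Both were chosen after their values were seen. At the low end Nupr1, a stress-induced nuclear protein, was at -1.18 and Phgdh, the entry enzyme of serine synthesis, at -1.10. Phgdh stood at 21.1 FPKM in siYthdf3 against 45.6 FPKM in siNC, a larger difference than that of any synthetase gene. Neural progenitor markers were also lower in siYthdf3, in 6 of 7, and their part in it was not tested. The interval above 1, from 1.07 to 1.45, was that of Sesn2, which encodes a leucine sensor and was picked with its value known.

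**Figure D5:**
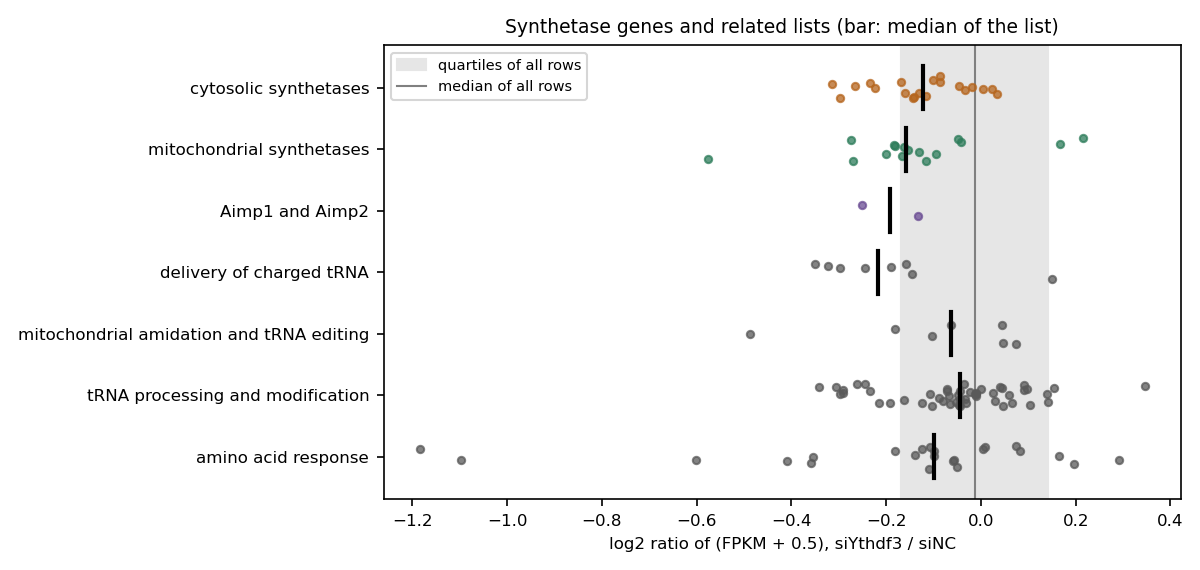
Log2 ratio of (FPKM + 0.5), siYthdf3 over siNC, for every gene that passed the filter, by list, with black bars for the list median, a grey line for the median of all rows and a grey band for their quartiles. The medians of the cytosolic and mitochondrial synthetases, -0.12 and -0.16, lie inside the band, and that of the delivery genes, -0.22, lies below it.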

How the data were processed

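Per the labels' protocols, 1 ug of TRIzol-extracted total RNA per group went into a digital mRNA kit that marks cDNA molecules with identifiers of 12 random bases. Paired reads of 150 bases were sequenced. The submitters' processing notes list, with no roles, StringTie 2.1.4, edgeR 3.40.2, Subread 1.5.1, featureCounts, STAR 2.7.6a and fastp 0.23.2. The sources used here do not give the genome build, the annotation release, the strand setting or how identifiers were used. Coordinates are therefore those of the table, with its build unknown, and sequences are those of RefSeq windows on GRCr8, matched by symbol.

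The authors deposited FPKM values per gene and library, with gene lengths, per the file headers. Multiplied by length, 100% of the values came out as whole multiples of 1 step, within 0.05, and this gave the reads behind each value. A count of 0 allows up to 3 reads. No count test was run, since each group has 1 library.

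Log2 ratios used a pseudocount of 0.5 FPKM, which understates differences of low genes, over the 13172 rows whose mean reached 1 FPKM. Genes were called by rules of size of 1.5-fold and by exact Clopper-Pearson 95% counting intervals of the FPKM ratio, which cover counting error only and are too narrow where reads copy 1 molecule. A symbol on several rows was read from its highest one by mean. Named are the members, other than 2 that are not reported here, Ythdf3 and the 2 genes farthest from 0 of each related list, unless said otherwise. The members and lists were chosen with earlier results of these data known. Ratios, intervals and read recovery were tested on simulated data. Alternatives were other pseudocounts, filters, scalings, fold rules and groupings, removal of a length trend and thinning of siYthdf3 reads, and, after the data were seen, a minimum of 500 reads. Protein sequences were not used here. Python 3.11.15, numpy 2.4.6, pandas 2.3.3, scipy 1.17.1 and matplotlib 3.10.9 were used.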

Additional observations from a re-analysis of the deposited data

How the results depend on the processing

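The median log2 ratio of the synthetase genes lay between -0.14 and -0.09 under all alternatives run, and those of the cytosolic and the mitochondrial genes kept their sign. Rescaling to TPM moved the median of all rows to 0.04, against -0.01 as deposited. It left 12 intervals below 1 in place of 20, of which 2 were mitochondrial, gave 4 above 1 and turned Eprs1 to 0.0037; Lars1, Mars1 and Lars2, whose intervals include 1 as deposited, also changed sign. At least 1.5-fold lower was 1 gene after rescaling to TPM, with a pseudocount of 0.1 FPKM and after thinning of siYthdf3 reads, against 0 as reported, and 1 gene passed a looser fold rule. Thinning gave 2 intervals above 1. The share of all rows above 1 was computed only for the values as deposited, where it was 20%. Mitochondrial intervals below 1 numbered 3 of 6 genes at a mean of at least 5 FPKM, where the share of all rows was 27.7%. They numbered 3 of 7 at 500 or more reads, a minimum chosen after seeing the data, where that share was 27.0%. As reported they were 5 of 16, where that share was 22.2%. The mitochondrial median was -0.10 at a mean of at least 5 FPKM and -0.05 at 500 or more reads. Causes were not tested. Depth limits the mitochondrial genes, whose median was 451 reads over both libraries. No paired analysis was possible because each group has 1 library.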
